A study of Mus musculus with 6 samples.

Results

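A set of 10 genes of the insulin-like growth factor (IGF) system was followed in mouse neural stem cells that lack Smchd1. They were picked by name from the 27179 Entrez gene records of the count tables, and the count of each library in Smchd1 null and wild type cells was in view when they were picked, so their differences between genotypes are given here as a description. The set holds the ligand gene Igf1, the binding protein genes Igfbp2, Igfbp3, Igfbp4, Igfbp5 and Igfbp6, the receptor genes Igf1r and Insr, and the adaptor genes Irs1 and Irs2. All 10 had a record, and 9 passed the filter on low counts. Igfbp6 did not.

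Libraries made from total RNA were sequenced, 3 labelled Smchd1MommeD1/MommeD1, a homozygous null genotype, and 3 labelled Smchd1 wild-type. Smchd1 encodes a chromatin protein that helps keep the inactive X and some imprinted genes silent. All 6 libraries came from male neural stem cells derived from E14.5 brains, of strain C57BL/6 x FVB/N, grown on polyornithine and laminin with EGF and bFGF at 20 ng/ml each. The labels do not say whether replicates came from separate embryos, so the spread between libraries may be technical.

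IGF1 and IGF2 are secreted growth factors that act through IGF1R, a receptor tyrosine kinase, and in part through the insulin receptor INSR. The activated receptors phosphorylate IRS1 and IRS2, which recruit PI3 kinase and so activate AKT, mTOR and, through other adaptors, the RAS and ERK cascade, while AKT keeps FoxO transcription factors out of the nucleus. IGF binding proteins hold the ligands outside the cell, lengthening their life or keeping them from the receptor. In the developing brain the pathway is known for its role in the growth and survival of neural progenitors.

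Counts per library ran from 18608881 to 23253367. Wild type replicate 3 stood apart: the 6 records above 1% of any library held 58.3% of its counts, against 5.84% to 11.7% elsewhere, and its depth after scaling was 10.1 M, against 21.3 to 25.8 M. The sample names hold numbers as well: 11 to 13 in the null libraries, 14 in wild type replicate 3, and numbers of 3 digits in wild type replicates 1 and 2. What they stand for is not stated. Smchd1 itself, as a check of the labels, had 30.3, 31.1 and 27.9 CPM (counts scaled to a common depth) in the null libraries, against 271, 260 and 232 CPM in wild type. All 11 neural stem cell markers were expressed, among them Nes at 1184 ± 35.8 CPM in null and 1286 ± 70.2 CPM in wild type cells (SD, n = 3 each). Summed CPM of other lists was small in both genotypes: 3.61 to 4.28 in null and 1.82 to 6.25 in wild type for 8 fibroblast and mural markers, 1.11 to 2.02 in null and 0.620 to 1.79 in wild type for 6 choroid plexus markers, 1.93 to 2.48 in null and 1.78 to 2.90 in wild type for 5 microglial markers, and 1.88 to 2.53 in null and 2.29 to 3.37 in wild type for 5 endothelial markers. Ttr and Folr1, which define choroid plexus, and Cdh5 of endothelium had 0 counts in every library. Oligodendrocyte precursor markers summed to 1430 to 1511 CPM in null and 1120 to 1603 CPM in wild type, and astrocyte markers to 288 to 306 CPM in null and 302 to 333 CPM in wild type. Olig1 (719 ± 23.8 CPM in null, 666 ± 99.6 CPM in wild type) and Olig2 (500 ± 11.2 and 480 ± 42.1 CPM) held most of the precursor sum. Pdgfra split the wild type libraries, with 112.6, 128.2 and 137.5 CPM in null, against 17.1, 18.3 and 167.4 CPM in wild type. Sox10 did so too, with 3.01, 3.75 and 3.39 CPM in null, against 0.543, 0.426 and 7.24 CPM in wild type.

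The sequence just upstream of Igfbp4 is shown because this gene carried the largest difference with separate groups among the 10 genes, and that of Igfbp2, Igfbp3 and Igfbp5 for comparison. Sequences are from RefSeq on GRCm38.p6, the assembly of mm10, read 5′ to 3′ on the gene's strand and ending at the base before the annotated start, with the TATAAA box motif in capitals.
Igfbp4, chr11:99040994-99041243, plus strand: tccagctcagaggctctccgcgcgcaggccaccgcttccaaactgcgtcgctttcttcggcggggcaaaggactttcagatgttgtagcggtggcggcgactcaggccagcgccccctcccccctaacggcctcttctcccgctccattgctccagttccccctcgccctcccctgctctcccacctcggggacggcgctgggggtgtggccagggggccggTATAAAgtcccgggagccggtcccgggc
Igfbp2, chr1:72824430-72824479, plus strand: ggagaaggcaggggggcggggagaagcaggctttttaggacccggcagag
Igfbp3, chr11:7213924-7213973, minus strand: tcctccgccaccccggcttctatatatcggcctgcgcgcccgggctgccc
Igfbp5, chr1:72874866-72874915, minus strand: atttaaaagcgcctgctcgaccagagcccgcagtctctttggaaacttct

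The Igfbp4 gene record begins at 99040005, upstream of this annotated start at 99041244. TATAAA began 28 bases before that start, and the 250 bases upstream of Igfbp2, Igfbp3 and Igfbp5 did not hold it on either strand; among the 9 genes with a window Igfbp6 alone held it too, 148 bases upstream on the other strand. Of all 32851 promoter windows in the RefSeq table, 12.4% held TATAAA in these 250 bases. Only these exact letters were searched, so other forms of a TATA box were not counted. The Igfbp3 stretch printed above holds tatatat, so the search does not set Igfbp4 apart from Igfbp3 in having a TATA-like stretch near the start. The Igfbp4 window held 22 CpG dinucleotides, against a median of 6 over all windows. GTAAACA, a FoxO binding element, was in no window of the 9 genes that have one, and in 3.17% of all windows. CCAAT was in the windows of Igf1, Igfbp6 and Irs2, and in 33.8% of all windows. Insr had no window in the table.

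The adaptor genes Irs1 and Irs2 are shown because their upstream windows shared a stretch, with CACGTG (an E-box) and TGTTTTG (the core of an insulin response element) in capitals.
Irs1, chr1:82291531-82291560, minus strand: ctccgtCACGTGTTTTGctcctctggagtg
Irs2, chr8:11008950-11008979, minus strand: cagagtCACGTGtTGTTTTGctcttagttc

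In Irs1 the E-box began 115 bases and TGTTTTG 111 bases before the start, so that the motifs overlap, and a second TGTTTTG began at 32 bases; in Irs2 they began 44 and 37 bases before it and stand apart by 1 base. Over the whole 250-base windows, the longest runs common to the pair were gtcacgtgtt and tgttttgctc, of 10 bases each. These runs were found on either strand in 0.07% and 0.0639% of all windows, CACGTG in 6.02% and TGTTTTG in 5.56%. Among the other genes with a window, CACGTG was also in a window of Igfbp2, 142 bases before its start. A match describes letters only.

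**Figure D1:**
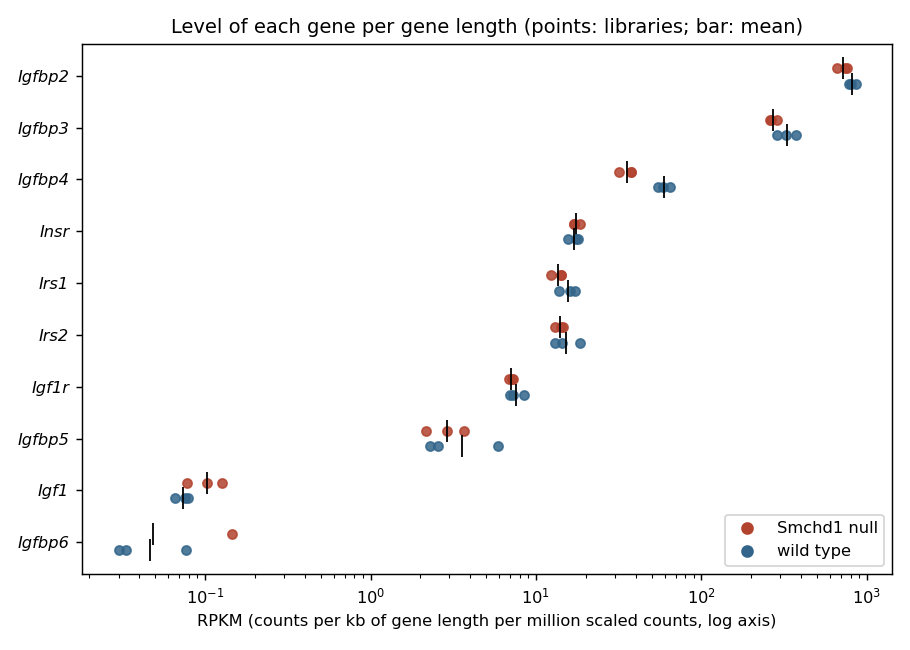
Level of each of the 10 genes in RPKM (CPM per kb of gene length, log axis). Points are libraries, black bars are means, and libraries at 0 are not drawn; Igfbp2 lies at the top with 721 RPKM in null and 813 RPKM in wild type cells, and Igf1 and Igfbp6 lie lowest.

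The binding proteins spanned the widest range of levels, and the ligand was close to undetected. Per gene length, Igfbp2 had 721 ± 52.0 RPKM in null and 813 ± 39.1 RPKM in wild type cells (SD, n = 3 each). Igfbp3 followed at 260 to 287 RPKM in null and 285 to 374 RPKM in wild type libraries, and Igfbp4 at 35.5 ± 3.38 RPKM in null and 59.3 ± 4.68 RPKM in wild type. Insr had 17.5 ± 0.88 RPKM in null and 17.0 ± 1.28 RPKM in wild type. Then came Irs2, at 13.96 ± 0.81 RPKM in null and 15.3 ± 2.81 RPKM in wild type, and Irs1, at 13.5 ± 1.03 RPKM in null and 15.7 ± 1.81 RPKM in wild type, whose libraries overlapped in both genotypes. In wild type cells those of Insr overlapped both Irs1 and Irs2. Igf1r stood at 7.07 ± 0.21 RPKM in null and 7.57 ± 0.83 RPKM in wild type, and Igfbp5 at 2.91 ± 0.76 RPKM in null and 3.58 ± 2.02 RPKM in wild type. Igf1 (0.102 RPKM in null, 0.0737 RPKM in wild type) and Igfbp6 (0.0485 RPKM in null, 0.0467 RPKM in wild type) were last and overlapped each other. The other neighbours in each genotype's own order of means did not overlap.

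Igf1, the ligand, lies on chromosome 10 from 87858265 to 87937047. It had 21, 13 and 18 counts in null replicates 1 to 3, against 16, 12 and 6 counts in wild type. On the CPM scale these are 0.987, 0.609 and 0.802 in null and 0.620, 0.512 and 0.595 in wild type libraries. The groups overlapped, and the log2 fold change, null minus wild type, was 0.48 ± 0.30 (SE). Igf2, the second ligand and a gene of the imprinted cluster it shares with H19, was as sparse, at 0.490 ± 0.149 CPM in null and 0.694 ± 0.074 CPM in wild type, a log2 fold change of -0.49 ± 0.32 (adjusted p = 0.416, edgeR quasi-likelihood test over all genes). Ins1 and Ins2, which encode insulin, had 0 counts in every library.

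**Figure D2:**
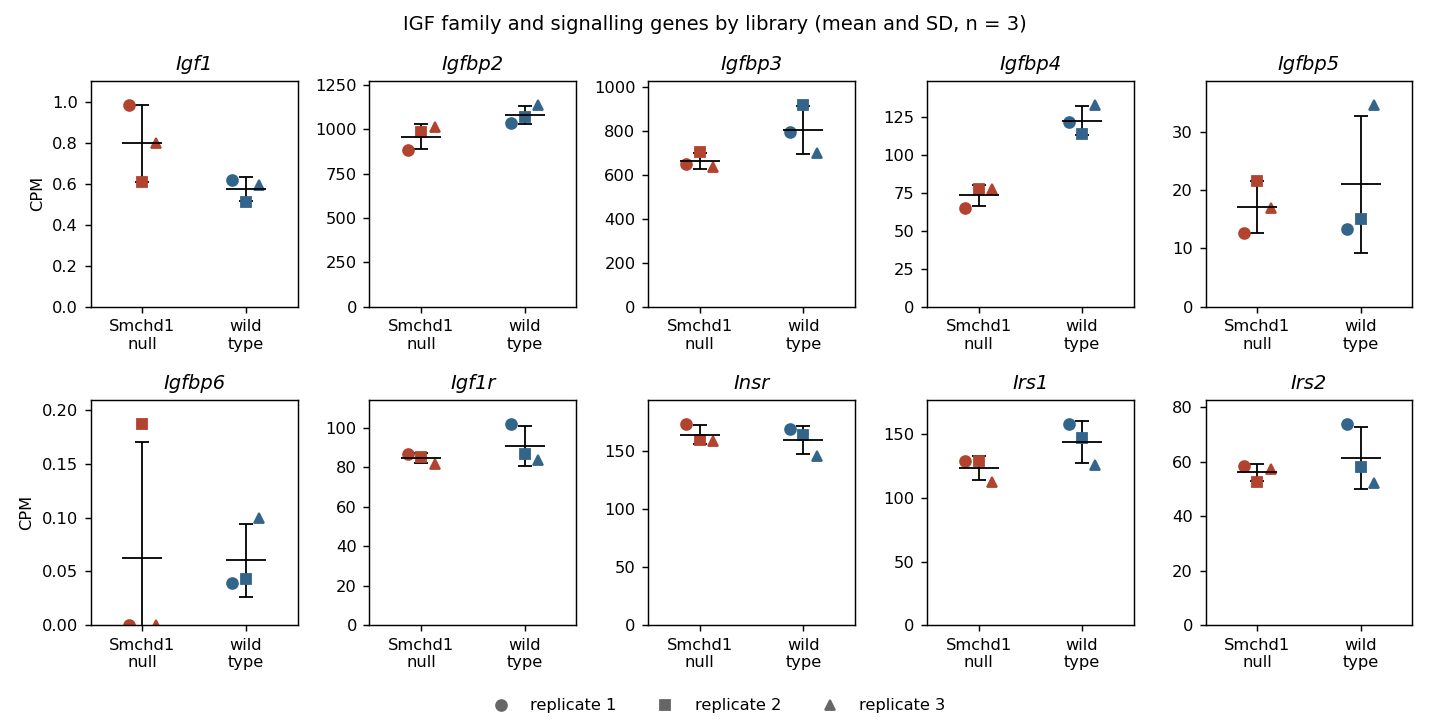
CPM (after TMM scaling) of each gene in each library, with Smchd1 null at the left and wild type at the right of each panel. Symbols mark the replicate number, and the bars give the mean and SD (n = 3); Igfbp4 shows 65.3 to 77.5 CPM in null and 113.7 to 133 CPM in wild type, while most other genes overlap.

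Igfbp4 encodes a binding protein that mostly keeps IGF from its receptor until it is cleaved by the protease PAPP-A. The gene lies on chromosome 11 from 99040005 to 99052655 (mm10). It had 65.3, 77.4 and 77.5 CPM in null replicates 1 to 3, against 121.7, 113.7 and 133 CPM in wild type. The groups did not overlap, and wild type replicate 3 lay with the other wild type libraries, at the high end. The log2 fold change was -0.74 ± 0.09 (SE), which is a level in null cells of 0.599 times that in wild type. In bulk RNA, fewer cells that express the gene and less RNA per cell cannot be told apart. The summed CPM of 8 neuronal markers also had separate groups, at 1005 to 1034 CPM in null and 1091 to 1142 CPM in wild type. Map2 alone made up 981 CPM of the null and 1084 CPM of the wild type mean. Of the 7 tested neuronal markers 4 had a positive and 3 a negative log2 fold change, so the sum does not stand for the list. Map2 was the 1 tested marker with separate groups and null lower. Only Nefl was called, and it rose, to 2.56 ± 0.52 CPM in null, against 0.720 ± 0.175 CPM in wild type (adjusted p = 0.0228, edgeR). The part of these markers in the Igfbp4 result was not tested.

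Igfbp4 was the 1 gene called among the 9 tested, in the null-lower direction, at an adjusted p under 0.05. In the same fit 0.0704% of the 14207 tested genes were called lower in null and 0.577% were called in either direction. Since this contrast was in view when the genes were picked, nothing is read from the count. Leaving out null replicate 1 or null replicate 3 ended the call, with log2 fold changes of -0.67 (adjusted p = 0.0556) and -0.78 (adjusted p = 0.0612), both from edgeR's quasi-likelihood test. Without wild type replicate 3 the log2 fold change was -0.68, and with the range of sample-name numbers as a term in the model it was -0.86. Among the libraries numbered 11 to 14 alone, 3 null and 1 wild type, it was -0.86. This is the same comparison as with that term, null against wild type replicate 3, and not a separate result.

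Igfbp4 made up a smaller part of the binding protein transcripts in null, which restates the same counts as a share. Per gene length it took 3.29%, 3.50% and 3.53% of the summed RPKM of Igfbp2 to Igfbp6 in null replicates 1 to 3, against 5.06%, 4.44% and 5.31% in wild type. The share of Igfbp2 was 69.98% ± 1.495 in null and 67.5% ± 2.83 in wild type, and that of Igfbp3 was 26.3% ± 1.59 in null and 27.3% ± 3.39 in wild type (SD, n = 3 each). The sum itself was 960 to 1068 RPKM in null and 1163 to 1238 RPKM in wild type libraries, with no overlap.

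Igfbp2, a binding protein of developing brain and of cerebrospinal fluid, had 881, 984 and 1013 CPM in null, against 1034, 1072 and 1137 CPM in wild type. Its groups were separate by a small gap, and the log2 fold change was -0.17 ± 0.08. Igfbp2 and Igfbp4 were the 2 of 9 tested genes whose groups did not overlap, both lower in null; of all tested genes, 22% had separate groups, and 10.6% had them with null lower. Igfbp2 and Igfbp5 are neighbours on chromosome 1, from 72824480 to 72852474 and from 72858065 to 72874865, with 5.59 kb between them.

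Igfbp5, which binds extracellular matrix as well as IGF, had 12.6, 21.5 and 16.9 CPM in null, against 13.3, 15.0 and 34.5 CPM in wild type. The high value belonged to wild type replicate 3, which was 2.44 times the mean of the other wild type libraries. Its log2 fold change of -0.25 ± 0.41 turned to 0.26 without that library and stood at -1.02 with the sample-name term. Wild type replicate 3 was also the highest wild type library in summed astrocyte markers (333 CPM) and oligodendrocyte precursor markers (1603 CPM). It was the highest of them in the small fibroblast and mural, choroid plexus and endothelial sums too. Within the astrocyte list Gfap, Aqp4, Aldh1l1 and S100b were highest in that library. Gja1 was lowest there, at 60.2 CPM against 91.1 and 106.2 CPM in wild type replicates 1 and 2, and Aldoc lay between those libraries. The part of any of these cells in the Igfbp5 value was not tested.

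Igfbp3, the main carrier of IGF in blood, lies on chromosome 11 from 7206086 to 7215498. It had 646, 703 and 637 CPM in null, against 795, 916 and 698 CPM in wild type. Wild type replicates 1 and 2 lay above all null libraries, and replicate 3 lay within the null range. The log2 fold change was -0.28 ± 0.10 with all libraries, -0.37 without wild type replicate 3 and -0.08 with the sample-name term. Igfbp6 (chromosome 15, 102144186 to 102149512), which prefers IGF2, had 0, 4 and 0 counts in null and 1, 1 and 1 in wild type. A count of 0 allows up to 0.141 CPM in null replicate 1 and 0.134 CPM in null replicate 3 (3 counts of the scaled total, counting error only), so a difference was not detectable at this depth.

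Igf1r lies on chromosome 7 from 67952257 to 68233668. It had 86.8, 85.4 and 81.8 CPM in null, against 102, 86.6 and 83.5 CPM in wild type, and its groups overlapped. Its log2 fold change was -0.10 ± 0.08. Insr (chromosome 8, 3150922 to 3279649) had 173, 159 and 159 CPM in null, against 168, 163 and 146 CPM in wild type, with a log2 fold change of 0.04 ± 0.08. For neither receptor were the groups separate. The ratio of Igf1r to Insr, per gene length, was 0.391, 0.418 and 0.403 in null and 0.473, 0.415 and 0.448 in wild type libraries, so the insulin receptor transcript was the more abundant in every library.

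Irs1 (chromosome 1, 82233105 to 82291439) had 129, 129 and 112.8 CPM in null, against 158, 147 and 126 CPM in wild type. As for Igfbp3, wild type replicate 3 lay within the null range, and the log2 fold change of -0.22 ± 0.10 became -0.31 without that library and -0.03 with the sample-name term. Irs2 (chromosome 8, 10984681 to 11008929) had 58.5, 52.4 and 57.2 CPM in null, against 74.0, 58.0 and 52.2 CPM in wild type. Wild type replicate 1 was the high one, and the log2 fold change was -0.14 ± 0.12. Irs2 turned to 0.10 with the sample-name term. In GENCODE M21 the gene Gm9747 on the opposite strand covers 30.9% of the exon bases of Irs1, and 9530052E02Rik covers 2.56% of those of Irs2. The library kit does not mark strand, so reads of such a pair cannot be told apart; 9530052E02Rik had at most 1 count in any library, and Gm9747 had no record matched here.

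**Figure D3:**
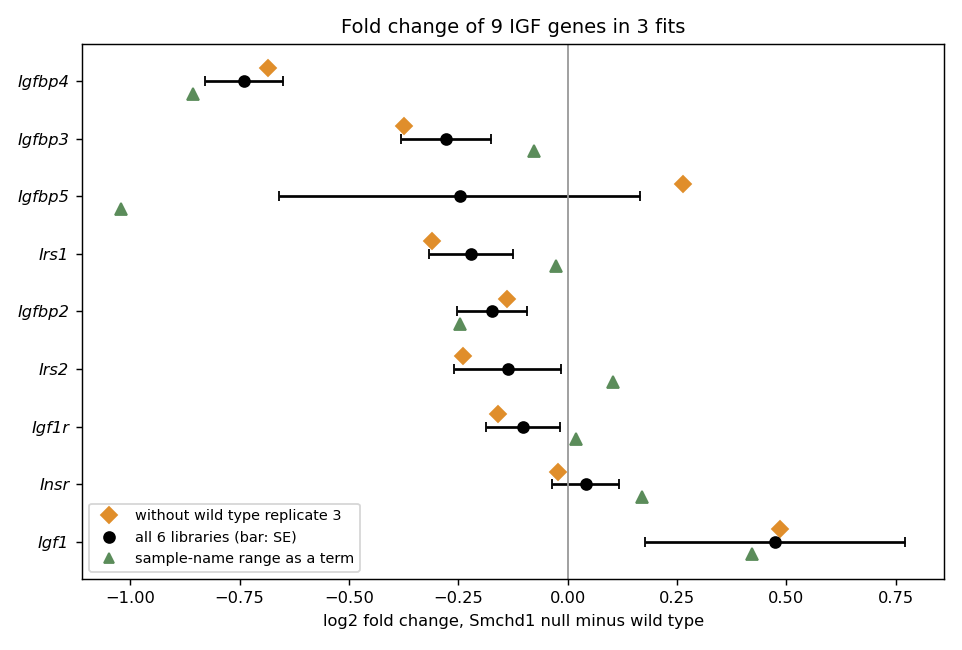
Log2 fold change (null minus wild type) of the 9 tested genes in 3 fits, with the SE of the fit to all 6 libraries as bars. Igfbp4 lies between -0.86 and -0.68 in the 3 fits, whereas Igfbp3, Irs1 and Irs2 lie further from 0 without wild type replicate 3 than with it and near or above 0 with the sample-name term, and Igfbp5 changes sign.

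Across these 9 genes, 7 had a negative and 2 a positive log2 fold change, with a median of -0.17, against a median of 0.00 and 49.6% negative over all tested genes. Without wild type replicate 3, edgeR called 3 of the 9, namely Igfbp3, Igfbp4 and Irs1, all lower in null, and 19.4% of all 14494 genes tested there were called lower (19.7% higher, 39.2% in either direction). With the sample-name term 1 was called, Igfbp4, where 0.767% of all genes were called lower 0.542% higher and 1.31% in either direction. With that term the comparison leans on a single wild type library, replicate 3, and cannot be told apart from what else sets that library off.

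None of the nearest tested genes on either side of the 10 genes that are not themselves among them was called by edgeR; their adjusted p values were at least 0.168. On either side of Igfbp4, Top2a, a DNA topoisomerase gene 15.8 kb away, stood at -0.13 ± 0.08 on the log2 scale (adjusted p = 0.388), and Smarce1, a chromatin remodelling subunit gene 156 kb away, at -0.16 ± 0.08 (adjusted p = 0.286, both edgeR). The 5 genes most like Igfbp4 in log2 CPM over the 6 libraries, by Pearson's r among 12179 genes, were Sdf2 (r = 0.996), Ctr9 (r = 0.996), Axl (r = 0.995), Arl10 (r = 0.992) and Rpl3 (r = 0.991). These r values share the genotype split and the scaling of the same 6 libraries. Axl, a receptor tyrosine kinase gene, had 7.45 ± 0.39 CPM in null and 10.9 ± 0.92 CPM in wild type, while Sdf2 had only 32.4, 33.8 and 33.4 CPM in null and 37.4, 37.0 and 37.8 CPM in wild type. Since the 5 were picked for this likeness, their genotype difference is not tested.

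The rest of the pathway was read from 7 lists grouped by role, with 91 genes of which 80 were tested. Earlier results of these data were known when the lists were written, so the counts of each list are a description. In the edgeR test 0 rose and 2 fell, against 0.507% called higher and 0.0704% called lower over all tested genes. At an unadjusted p under 0.05, 3 stood higher and 14 lower, 17 of 80, against 18.6% of all tested genes. DESeq2 called 0 of the 80 higher and 5 lower, where it called 1.27% of all genes higher and 1.56% lower, 2.82% in all. Limma-voom called 0 higher and 2 lower, against 0.732% and 0.162% of all genes, 0.894% in all. Limma-voom with sample quality weights called 6 higher and 22 lower, 28 of 80, where it called 19% of all genes higher and 17.4% lower, 36.4% in all. The 2 that fell are FoxO targets, and earlier results of these data had already shown them as called. Ccng2, a cyclin of growth arrest, fell to 25.8, 32.4 and 26.8 CPM in null, against 46.0, 43.9 and 39.9 CPM in wild type (log2 fold change -0.62 ± 0.10, adjusted p = 0.0380). Bnip3l, a mitophagy receptor, fell to 37.7, 42.5 and 39.4 CPM in null, against 60.0, 57.7 and 52.1 CPM in wild type (-0.51 ± 0.08, adjusted p = 0.0353). Neither passed with the sample-name term, at -0.49 (adjusted p = 0.0666) for Ccng2 and -0.39 (adjusted p = 0.0544) for Bnip3l in edgeR. Among the libraries numbered 11 to 14, the same comparison, the log2 fold changes were -0.50 for Ccng2 and -0.39 for Bnip3l. Whether these genes passed in that comparison depended on the fit, so their not passing with the term is not a separate result. Ccng2 lost its call with wild type replicate 1 (-0.57, adjusted p = 0.215), wild type replicate 2 (-0.61, 0.166), null replicate 1 (-0.55, 0.279) or null replicate 3 (-0.58, 0.28) left out of the edgeR fit. For Bnip3l the same omissions gave -0.47 (0.197), -0.50 (0.148), -0.47 (0.27) and -0.50 (0.245), and leaving out null replicate 2 gave -0.56 (0.118). Leaving out wild type replicate 3 gave smaller p values, with Ccng2 at -0.67 (adjusted p = 2.01e-05) and Bnip3l at -0.56 (adjusted p = 5.6e-06), in the fit where 39.2% of all genes were called.

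**Figure D4:**
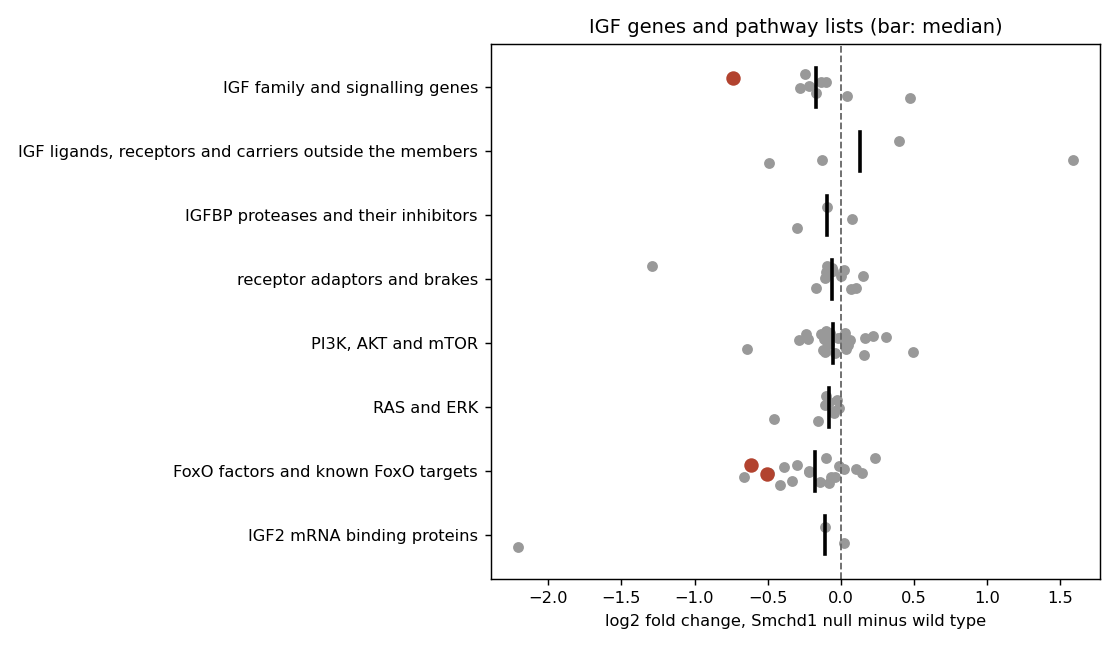
Log2 fold change (null minus wild type) of every tested gene of the 7 IGF pathway lists and of the 9 tested IGF family and signalling genes, with a black bar at each median and a dashed line at the median of all tested genes. Red points passed an adjusted p of 0.05, and all of these lie below 0. The RAS and ERK genes all lie left of 0, with Mapk3 furthest.

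FoxO factors and their known targets included 20 tested genes, of which 16 had a negative log2 fold change, against 49.6% of all tested genes, and the list's median was -0.18. Besides the 2 called, 5 more had an unadjusted p under 0.05, all lower in null, making 7 of 20, against 9.05% of all tested genes lower and 18.6% in either direction. As the list was written with earlier results of these data known, nothing is read from these counts. DESeq2 called Bcl6, a transcriptional repressor gene, and Foxo4 as well (adjusted p = 0.0116 and 0.0362), both lower. Over all genes DESeq2 called 2.82%. With the sample-name term Bcl6 had -0.42 and Foxo4 -0.23. Limma-voom called 2 of the 20. With quality weights it called 10 (2 higher, 8 lower), against 36.4% of all genes. EdgeR called 8 without wild type replicate 3 (1 higher, 7 lower), against 39.2% of all genes. It called 0 with the replicate block or with at least 10 counts in every library. Among the 28 genes of PI3K, AKT and mTOR, all tested, 0 were called by edgeR and 5 had an unadjusted p under 0.05, with a median of -0.06. The smallest p values there were those of Pik3ca, the catalytic PI3K subunit gene (137 ± 2.22 CPM in null, 159 ± 15.9 CPM in wild type, adjusted p = 0.215), and Deptor, an mTOR inhibitor gene (0.909 ± 0.191 CPM in null, 1.46 ± 0.20 CPM in wild type, adjusted p = 0.236). DESeq2 and limma-voom also called 0 of this list. Limma-voom with quality weights called 7 of 28 (2 higher, 5 lower), against 36.4% of all genes. EdgeR without wild type replicate 3 called 8 (3 higher, 5 lower), against 39.2% of all genes. Of the 9 RAS and ERK genes, all tested, 0 were called by edgeR and 1, Mapk3, had an unadjusted p under 0.05. All 9 had negative log2 fold changes, against 49.6% of all tested genes, with a median of -0.08. Mapk3, which encodes the kinase ERK1, stood furthest, at 43.8, 51.9 and 45.4 CPM in null and 70.7, 64.6 and 58.2 CPM in wild type (-0.46 ± 0.10, adjusted p = 0.0968 in edgeR). DESeq2 called Mapk3 (adjusted p = 0.00408) and limma-voom did not (adjusted p = 0.0605). With the sample-name term its log2 fold change was -0.31. Limma-voom called 0 of the 9. With quality weights it called 3, all lower, against 17.4% of all genes lower and 36.4% in either direction. EdgeR without wild type replicate 3 called 4, all lower, against 19.4% of all genes lower and 39.2% in either direction. Map2k1 had -0.16 ± 0.07 (adjusted p = 0.29).

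Outside the cell, 5 genes for the proteases that cleave binding proteins and for their inhibitors were considered, of which 3 were tested and 0 called by edgeR; 1 had an unadjusted p under 0.05. Pappa, whose product cleaves IGFBP4, was below the filter, at 0.387 ± 0.171 CPM in null and 0.492 ± 0.275 CPM in wild type. Stc2, an inhibitor of PAPP-A, had 11.6, 11.1 and 9.85 CPM in null and 13.1, 12.8 and 14.4 CPM in wild type (log2 fold change -0.30 ± 0.11, adjusted p = 0.221), and Stc1 one of -0.10 ± 0.16 (adjusted p = 0.75). Among other ligands, receptors and carriers 4 of 9 were tested, 0 were called by edgeR and 1 had an unadjusted p under 0.05. That was Igfbp7, a low-affinity binding protein gene, at 1.03, 1.41 and 0.758 CPM in null and 0.194, 0.299 and 0.794 CPM in wild type (log2 fold change 1.58 ± 0.47, adjusted p = 0.174). Its wild type replicate 3 lay within the null range; in edgeR the log2 fold change was 2.10 without that library (adjusted p = 0.000881) and 0.42 with the sample-name term (adjusted p = 0.803). Igf2r, the receptor that clears IGF2, had 124 ± 6.42 CPM in null and 136 ± 18.3 CPM in wild type (adjusted p = 0.467).

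Grb10 and Igf2bp1 split the wild type libraries rather than the genotypes. Grb10, an imprinted adaptor that restrains IGF1R and INSR, had 102, 113.2 and 89.1 CPM in null, against 334, 310 and 98.1 CPM in wild type. Igf2bp1, an RNA-binding protein of IGF2 mRNA, had 2.11, 2.16 and 1.61 CPM in null, against 14.2, 10.4 and 1.09 CPM in wild type. In both, wild type replicate 3 lay with or below the null libraries, while in Igfbp4 it lay above them all. Their log2 fold changes were -1.29 ± 0.47 (adjusted p = 0.251) and -2.20 ± 0.75 (adjusted p = 0.229). Without wild type replicate 3 they were -1.67 (adjusted p = 1.545e-06) and -2.66 (adjusted p = 1.05e-08) in edgeR, and with the sample-name term they were 0.05 and 0.84. Of the 13 tested adaptors and brakes, 0 were called by edgeR and 1, Grb10, had an unadjusted p under 0.05; next came Shc1 (log2 fold change -0.17 ± 0.10, adjusted p = 0.353). Of the 3 IGF2 mRNA binding protein genes, 0 were called by edgeR and 1, Igf2bp1, had an unadjusted p under 0.05; Igf2bp3 had -0.11 ± 0.12 (adjusted p = 0.625). DESeq2 and limma-voom also called 0 genes of the ligand, protease, adaptor and mRNA binding protein lists. With quality weights limma-voom called 2 genes of each of these 4 lists: Igf2r and Igfbp7, Stc2 and Htra1, Grb10 and Shc1, and Igf2bp1 and Igf2bp3. Igfbp7 and Htra1 were higher in null, and the others were lower. Without wild type replicate 3 edgeR called 2 ligand and carrier genes (1 higher, 1 lower) and 1 protease list gene (higher). It also called 3 adaptor genes (1 higher, 2 lower) and 2 mRNA binding protein genes (both lower). These fits called 36.4% and 39.2% of all genes.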

How the data were processed

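Per the labels' protocols, 1 µg of total RNA per library went into a TruSeq RNA v2 kit; this kit does not mark strand. The deposited values are raw counts per Entrez gene with a gene length; the submitters' processing notes list mm10, featureCounts, limma 3.22.0, edgeR 3.8.2 and CASAVA 1.8.2, with no role or order. The aligner is not given in the sources used here. Symbols and coordinates are from RefSeq (GRCm38.p6), which matched 25275 of 27179 IDs. Counts were filtered with filterByExpr (14207 genes kept), scaled by TMM and tested by edgeR 4.0.16 in R 4.3.3 with a robust quasi-likelihood F-test, two-sided, genotype as the only term, Benjamini-Hochberg adjusted over all tested genes, at 0.05. CPM and RPKM use the TMM-scaled totals. The code was tested on simulated data. Alternatives used DESeq2 1.42.0, limma-voom 3.58.1, other scalings and filters, a replicate block, the sample-name range and left-out libraries. The 10 genes and all lists were chosen with earlier results of these data known. Named genes are the 10, the called or 2 lowest-p genes of each list, and the 5 with the highest r with Igfbp4 among genes of average log2 CPM of at least 1 (prior count 2); Igf2r, Pappa, Htra1, Ins1, Ins2, Bcl6, Foxo4, Nes, Map2, Nefl and the other markers named were picked with their values seen, as were the windows printed. Every pair of libraries within a genotype differed by more than sampling noise.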

Additional observations from a re-analysis of the deposited data

How the results depend on the processing

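The count of all called genes was 82 and moved to 401 with DESeq2, 127 with limma-voom, 5168 with limma-voom and sample quality weights, 222 without a filter on low counts, 40 with at least 10 counts in every library, 186 with the sample-name term and 376 among the libraries numbered 11 to 14; leaving out 1 library gave 30 to 5676, the high value without wild type replicate 3. Of the 9 IGF genes 1 was called, with 3 under quality weights (Igfbp3, Igfbp4 and Irs1) and 0 to 3 when 1 library was left out. Of the 80 tested pathway list genes 2 were called, where 0.577% of all genes were. DESeq2 called 5 and quality weights 28, where 2.82% and 36.4% of all genes were called. Without a filter 4 of 89 were called, against 222 of 21095 genes. With at least 10 counts in every library 0 of 78 were, against 40 of 13064 genes. The sample-name term called 0, and 1.31% of all genes. Among the libraries numbered 11 to 14 the list calls differed from those with that term. Leaving out 1 library gave 0 to 28, the high value without wild type replicate 3, where 39.2% of all genes were called. The log2 fold change of Igfbp4 stayed between -0.86 and -0.67 over 16 alternatives (adjusted p from 3.37e-10 to 0.0612). Among these, the sample-name term and the libraries numbered 11 to 14 make the same comparison, null against wild type replicate 3. Directions turned for Igfbp5 (0.214 with quality weights, and -0.502 without wild type replicate 1 to 0.264 without wild type replicate 3), Insr (-0.008 with quality weights, and -0.021 without wild type replicate 3 to 0.082 without wild type replicate 1), Igf1r (0.02 with the sample-name term, 0.019 among numbers 11 to 14) and Irs2 (0.103 with the sample-name term, 0.102 among numbers 11 to 14, and -0.24 without wild type replicate 3 to 0.019 without wild type replicate 1); the cause was not tested. Same-numbered libraries did not deviate together (correlations of -0.01, 0.03 and -0.04 over 14207 genes), so the numbers were not taken as pairs. With the replicate block 54 genes were called, 1 of the IGF genes and 0 of the pathway lists. Depth limits Igf1, Igf2 and Igfbp6, and wild type replicate 3 is the least deep library.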
